A study of Mus musculus with 20 samples.

Results

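In developing serotonin (5-HT) neurons of the mouse, 105 of 22556 genes of the stage matrix stepped down over both intervals measured, first between E11.5 (E, embryonic day) and E15.5 and again between E15.5 and postnatal days 1 to 3 (PN). They were chosen on the measured levels. For each gene the mean of log2(FPKM + 1) over 3 libraries was taken at each stage, FPKM being fragments scaled to transcript length and to the mapped fragments, and both differences (E15.5 minus E11.5 and PN minus E15.5) had to be -0.8 or less. Of 114 genes past both thresholds, 8 were left out as unnamed, Rik, microRNA or small nucleolar RNA symbols and 1 for a failed estimate. The stage values and differences of these genes are therefore a description of what the rule selected, and no test of them is given. All 105 were among the 11741 genes that reached 1 FPKM in 3 libraries or more, which 104 met with their E11.5 libraries alone and Hist1h1a, at 0 FPKM in 1 of those, through its E15.5 libraries as well.

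The stage samples were sorted EYFP+ 5-HT neurons of wild-type C57BL/6 mice at E11.5, E15.5 and PN, in 3 libraries each, amplified with the Clontech SMARTer kit. At E15.5 the same kit was also used for Pet-1-/- neurons of that strain (3 libraries), and Pet-1-/- and wild-type neurons of E15.5 were sequenced a second time after amplification with the NuGEN Ovation kit (3 libraries each). Hindbrain chromatin carrying a Myc-tagged Pet-1 was precipitated once with an anti-Myc antibody, beside 1 input. The protocol describes this tissue as Pet-1-/-; ePet-mycPet-1; ePet-EYFP, the tagged protein and the reporter both driven by the ePet enhancer of Pet-1, whereas another label calls it wild type, and the ages are given as E12.5 to E14.5 or to E15.5. Whether the sorted knockout and wild-type cells carried further alleles besides the EYFP reporter is not stated, and nothing says that libraries came from separate animals, so the p and q values below measure only the spread between these libraries.

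Serotonin neurons of the hindbrain leave the cell cycle in mid-gestation and then extend axons, switch on transmitter synthesis and transport, and build their synapses over weeks. Early on they are specified by a cascade of transcription factors that includes Gata2, Gata3, Lmx1b and Pet-1, the ETS-family factor encoded by Fev. Genes that decline as any neuron matures commonly include cell cycle regulators, RNA-binding proteins of the fetal programme such as the Igf2bp family, intermediate filaments of progenitors and factors of the newborn neuron.

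The wild-type libraries held 630091 to 919994 summed FPKM and 9614 to 11280 genes at 1 FPKM or more. Their depth is unknown. Serotonin neuron markers other than Lmx1b, a member, summed to 963 to 1428 FPKM at E11.5, 483 to 595 FPKM at E15.5 and 511 to 792 FPKM in PN, with 9 or 10 of the 10 at 1 FPKM or more. Markers of astrocytes and radial glia summed to 127 to 222 FPKM at E11.5, 959 to 1825 FPKM at E15.5 and 442 to 1207 FPKM in PN. Microglia markers reached at most 28.4 FPKM in the embryonic libraries but 137 to 1179 FPKM in PN, with a PN median of 138 FPKM. The part of other cells in the levels below was not tested. In sorted bulk RNA, fewer cells of a type and less RNA per cell cannot be told apart. In the knockout, Fev itself stood at 0.308 FPKM against 34.9 FPKM in wild type with NuGEN and at 0.422 FPKM against 31.1 FPKM in wild type with Clontech, in the authors' deposited tables.

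The members covered a wide range of levels. Their mean at E11.5 had a median of 28.9 FPKM and ran between 4.70 and 6998 FPKM, the median was 8.16 FPKM at E15.5, and in PN it was 2.79 FPKM. The log2 difference had a median of -1.27 in the first interval and -1.10 in the second, against 0.11 and 0.01 over all genes tested. Summed over both intervals it lay between -6.40 and -1.63, with 13 members at -4 or below and 20 above -2. The first step was the larger for 62 members and the second for 43, and the median share of the whole fall made before E15.5 was 52.7%, with extremes of 29.0% and 86.3%. By PN, 24 members averaged under 1 FPKM and 27 still stood at 10 FPKM or more. Together the members took 3.53% to 4.17% of the summed FPKM at E11.5, 1.68% to 2.15% at E15.5 and 0.936% to 0.982% in PN.

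**Figure D1:**
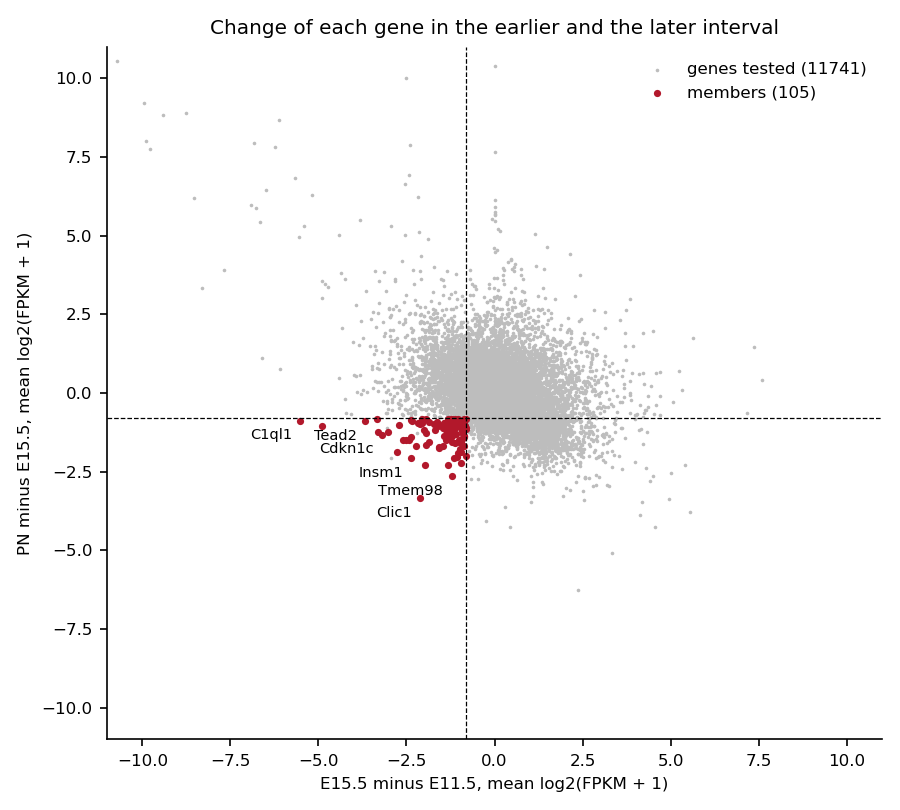
Each point is a gene, placed by its log2 difference between E11.5 and E15.5 (x axis) and between E15.5 and PN (y axis), both as differences of mean log2(FPKM + 1); grey points are the 11741 genes tested, red points the 105 members, and dashed lines the threshold of -0.8. The members fill the lower left corner, with C1ql1 farthest left and Clic1 lowest.

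Of 1942 eligible genes past the threshold in the first interval, 5.41% were past it in the second too. The 1942 were counted with no filter on low values. Among the 11741 genes tested, 1728 were past the threshold in the first interval only and 1748 in the second only. Both differences use the E15.5 mean with opposite sign, so an error in that mean moves them apart, and the 5.41% is a description. The mirrored rule found 332 genes that climbed by as much in both. Every E15.5 library lay below every E11.5 library for 80 members (17.7% of all genes tested), every PN library lay below every E15.5 library for 82 (20.6% of genes tested), and both held for 65 (1.5% of genes tested). By limma, with a Benjamini-Hochberg adjusted p under 0.05 and a change of 1.5-fold or more, 69 members were lower in the first interval (1348 of 11741 genes tested), 52 in the second (9.55% of genes tested) and 40 in both (0.426%). The rule used those same differences, so nothing is read from these counts. Nearest inside the threshold were Suv420h2 with differences of -0.80 and -1.10, Cyb5r1 with -0.81 and -1.15 and Golm1 with -3.34 and -0.81. Nearest outside were Gstm7 with -1.18 and -0.79992, Msi1 with -0.80 (-0.796514 unrounded) and -1.38, and Snrpg with -0.79 and -0.99. When each of the 9 libraries was left out in turn, 44 members stayed in whichever was missing. Cdc25b was the least secure, staying in for 3 of the 9.

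Pet-1 occupancy was read at the starts of these genes from the authors' list of 4934 mycPet-1 peaks (mm10), whose scores, of 50 or more, are the authors' own. Annotated starts (RefSeq, GRCm38.p6) were on hand for 83 of the 105 members, or 79.0%. That is under 80%, so a start-based share is void as a property of the whole set, and only single members are described by their starts. Of the located members 22 had a peak within 1 kb of a start, against 33.7% of the genes tested that could be located. The highest peaks were those of Gpc2, a glypican (score 1136), Rps28, a protein of the small ribosomal subunit (582), Gata2 (297), Cited2, a transcriptional coactivator that binds CBP (252), Patz1, a zinc finger factor (226), and Lmx1b (219). The peak covered the start of the first 5 of these and lay 631 bases away for Lmx1b. By gene span, available for every member, 31 of 105 (29.5%) held a peak in the span or within 1 kb of it, against 35.8% of genes tested and 17.7% of the genes that climbed in both intervals. Spans were shorter for members, with a median of 13.9 kb against 22.7 kb over genes tested.

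The windows around 5 of these starts are shown, each covered by a peak: Gpc2, Rps28, Gata2 and Cited2, which have the 4 highest peak scores, and Vim, the gene lower in both Pet-1 knockout tables whose start lies under a peak. Each window runs 5′ to 3′ over 250 bases before and 50 bases from the start, credited to RefSeq (GRCm38.p6). Capitals mark the 6 letters CCGGAA or TTCCGG, the same motif on either strand and the core that many ETS factors bind. Gpc2 is at chr5:138279888-138280187 on the minus strand and Rps28 at chr17:33824513-33824812 on that strand too, Gata2 at chr6:88193641-88193940, Cited2 at chr10:17722978-17723277 and Vim at chr2:13574061-13574360, these 3 on the plus strand.
Gpc2: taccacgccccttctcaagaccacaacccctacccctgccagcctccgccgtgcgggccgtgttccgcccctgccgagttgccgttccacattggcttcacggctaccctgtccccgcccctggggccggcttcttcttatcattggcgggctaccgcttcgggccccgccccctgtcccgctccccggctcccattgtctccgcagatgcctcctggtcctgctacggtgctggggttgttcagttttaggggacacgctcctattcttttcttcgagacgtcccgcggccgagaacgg
Rps28: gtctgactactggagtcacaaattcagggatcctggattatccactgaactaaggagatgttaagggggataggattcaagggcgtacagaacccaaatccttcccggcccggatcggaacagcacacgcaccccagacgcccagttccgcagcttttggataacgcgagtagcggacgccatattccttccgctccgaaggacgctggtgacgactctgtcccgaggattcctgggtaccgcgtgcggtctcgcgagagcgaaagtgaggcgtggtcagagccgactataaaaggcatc
Gata2: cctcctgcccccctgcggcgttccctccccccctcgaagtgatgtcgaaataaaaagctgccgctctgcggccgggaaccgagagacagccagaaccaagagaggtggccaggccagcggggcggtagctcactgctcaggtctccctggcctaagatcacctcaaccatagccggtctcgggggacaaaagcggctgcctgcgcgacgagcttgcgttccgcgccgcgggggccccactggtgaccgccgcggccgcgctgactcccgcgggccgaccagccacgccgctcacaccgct
Cited2: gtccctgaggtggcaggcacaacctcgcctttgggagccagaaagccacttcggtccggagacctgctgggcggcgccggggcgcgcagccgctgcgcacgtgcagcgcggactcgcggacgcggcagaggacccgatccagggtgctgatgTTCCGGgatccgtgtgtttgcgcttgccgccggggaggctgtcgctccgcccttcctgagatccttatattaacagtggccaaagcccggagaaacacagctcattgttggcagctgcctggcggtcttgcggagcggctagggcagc
Vim: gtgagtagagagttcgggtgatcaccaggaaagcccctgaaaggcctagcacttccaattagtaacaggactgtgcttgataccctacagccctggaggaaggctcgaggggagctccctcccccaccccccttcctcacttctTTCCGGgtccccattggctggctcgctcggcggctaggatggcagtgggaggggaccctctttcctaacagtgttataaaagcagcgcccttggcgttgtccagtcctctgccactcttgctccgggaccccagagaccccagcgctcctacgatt
The motif stood once in Cited2, 98 bases before the start, and once in Vim, 106 bases before it. Neither form was found in the windows of Gpc2 and Rps28, nor in the 1 window shown of the 2 annotated for Gata2. The window of Cnn3, another gene lower in both knockout tables, whose peak lies 262 bases from the start, held neither form. Over 27025 genes, 15.2% of such windows held it, so a match describes letters and not a bound site.

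Transcription factors of the serotonin lineage and of newborn neurons were represented by Gata2 and Lmx1b (2 of 13 tested genes of the first list) and by Insm1, Ebf1, Zfhx3 and Tshz3 (4 of 39 of the second). The libraries gave Gata2 FPKM values of 173, 143 and 89.2 at E11.5, 44.5, 38.8 and 20.3 at E15.5 and 15.6, 10.7 and 13.2 in PN (log2 differences -1.96 and -1.27). For Lmx1b the FPKM values were 54.1, 19.4 and 21.2 at E11.5, 5.69, 7.31 and 5.19 at E15.5 and 0.686, 7.18 and 2.498 in PN, steps of -2.06 and -0.95 on the log2 scale. Both factors act upstream of or beside Pet-1 in the lineage. The groups did not overlap for Gata2 at any stage, whereas for Lmx1b 1 PN library reached the E15.5 range. Insm1, a zinc finger repressor of neural and endocrine progenitors leaving division, gave a like picture. Insm1 had an FPKM of 73.7, 44.5 and 39.5 at E11.5, 11.1, 10.1 and 6.56 at E15.5 and 2.01, 1.12 and 1.15 in PN, with log2 differences of -2.36 and -2.06. The libraries gave Ebf1 FPKM values of 29.2, 28.2 and 27.2 at E11.5, 6.35, 2.92 and 1.75 at E15.5 and 0.02502, 0.0901 and 0.403 in PN (log2 differences -2.76 and -1.89). Ebf1, a helix-loop-helix factor of neuronal differentiation, had at most 0.403 FPKM in PN, a difference of -4.65 over both intervals on the log2 scale. The large homeodomain factor Zfhx3 and the teashirt factor Tshz3 had smaller falls. For Zfhx3 the FPKM values were 24.2, 16.1 and 18.9 at E11.5, 6.21, 5.71 and 4.38 at E15.5 and 1.67, 2.29 and 1.59 in PN, steps of -1.68 and -1.17 on the log2 scale. Tshz3 had an FPKM of 7.5998, 4.71 and 10.2 at E11.5, 4.98, 2.37 and 3.63 at E15.5 and 0.681, 1.28 and 1.67 in PN, with log2 differences of -0.85 and -1.06. Over all genes tested, limma called 1348 of 11741 lower and 17.4% higher in the first interval, and 9.55% lower and 10.6% higher in the second, and the counts of every list are set against these shares. Of the 35 other genes of the newborn-neuron list, 10 were lower (28.6%) and 9 higher (25.7%) in the first interval and 6 lower (17.1%) and 0 higher in the second, where 1 was higher at an unadjusted p below 0.05. The largest falls called were those of Pou2f2 and Pou3f4, both POU-domain factors, in the first interval, and of Sox11 and Nfia in the second. Pou2f2 had a mean FPKM of 57.4 ± 14.4 at E11.5 and 2.68 ± 0.965 at E15.5 (SD, n = 3 each), a log2 difference of -3.99 ± 0.34 (SE) with an adjusted p of 1.41e-05. Pou3f4 had a mean FPKM of 139 ± 17.8 at E11.5 and 23.1 ± 8.64 at E15.5 (SD, n = 3 each), a log2 difference of -2.61 ± 0.32 (SE) with an adjusted p of 0.000172. Sox11 had a mean FPKM of 289 ± 70.04 at E15.5 and 14.1 ± 2.49 in PN (SD, n = 3 each), a log2 difference of -4.25 ± 0.31 (SE) with an adjusted p of 5.67e-06. The nuclear factor I genes, which act late in neural development, were higher in the first interval. Nfix had a mean FPKM of 0.343 ± 0.156 at E11.5 and 203 ± 82.9 at E15.5 (SD, n = 3 each), a log2 difference of 7.16 ± 0.36 (SE) with an adjusted p of 1.24e-07. Nfia had a mean FPKM of 0.172 ± 0.0182 at E11.5 and 36.9 ± 4.44 at E15.5 (SD, n = 3 each), a log2 difference of 5.01 ± 0.32 (SE) with an adjusted p of 1.31e-06. Nfia had a mean FPKM of 36.9 ± 4.44 at E15.5 and 5.49 ± 1.297 in PN (SD, n = 3 each), a log2 difference of -2.56 ± 0.32 (SE) with an adjusted p of 0.000362. Of the 11 other serotonin-lineage factors, 6 were lower and 1 higher in the first interval and 1 was lower and 0 higher in the second, where 2 were higher at an unadjusted p below 0.05 (limma). The mean FPKM of Fev was 266 ± 112 at E11.5, 35.2 ± 20.5 at E15.5 and 72.3 ± 33.98 in PN (SD, n = 3 each), which is no steady fall.

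**Figure D2:**
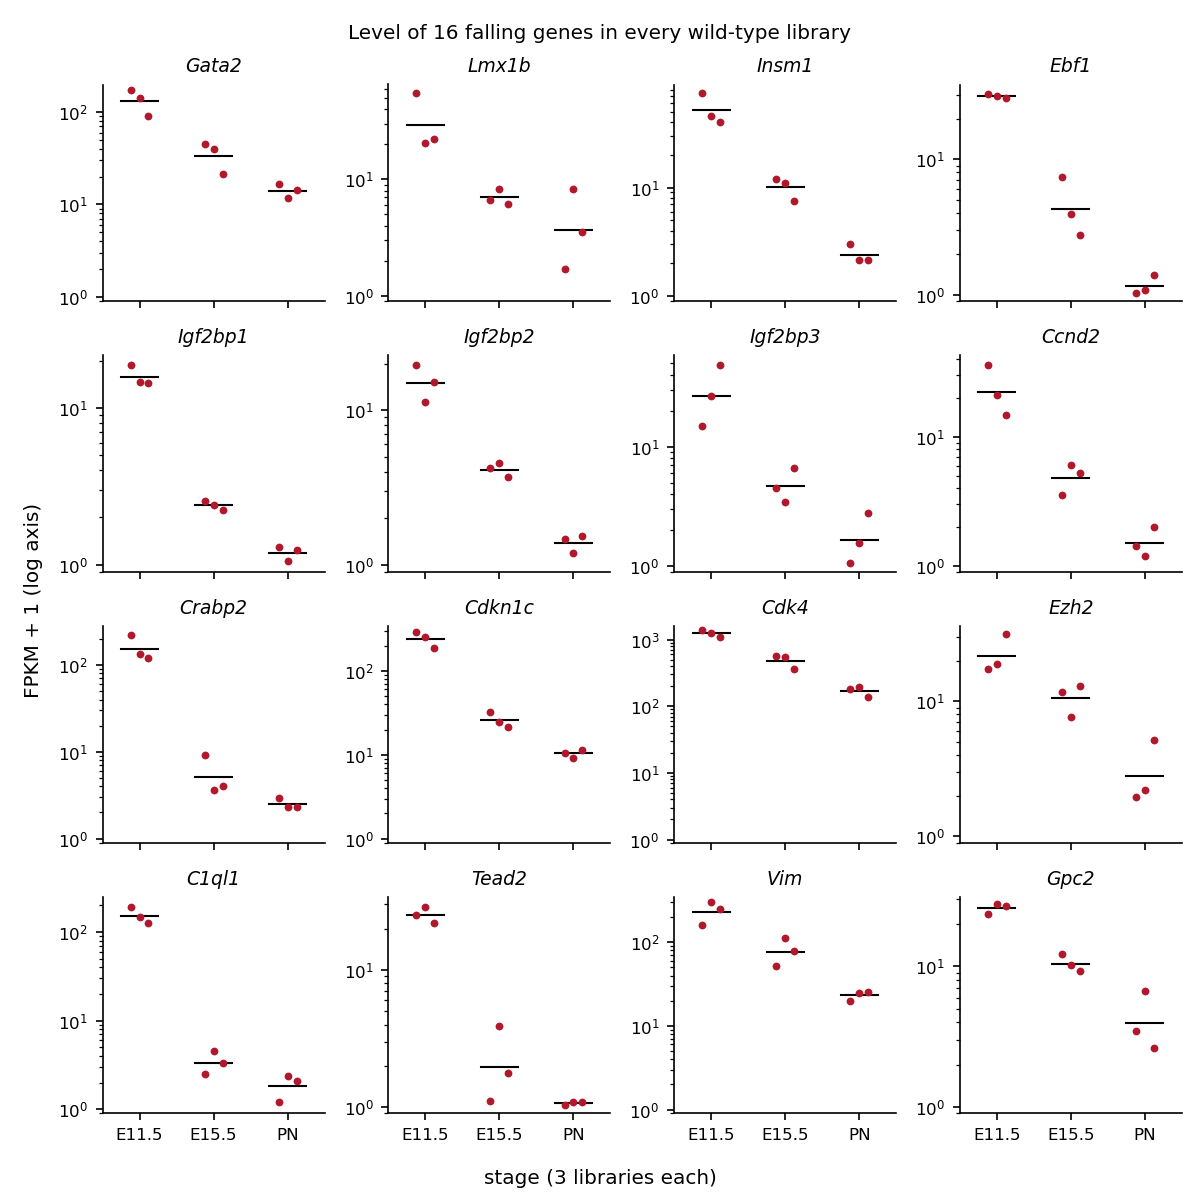
Points are the 3 libraries of each wild-type stage for 16 members, on a log axis of FPKM + 1, and bars are the means on the log scale. C1ql1 and Tead2 are near their floor by E15.5, while Cdk4 and Vim are well above it at every stage.

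The Lin28 and let-7 list, a set of genes that time development through the let-7 microRNAs and their targets, had the highest share of members of the 21 lists, 4 of 18 tested genes. The lists were chosen with earlier results of these data known, and each gene was placed in a single list. Ccnd2, for example, counted here and not in the cell cycle list. The order of the lists is therefore a description. The 3 Igf2bp genes of the mouse, which encode mRNA-binding proteins of fetal tissues, were all members. The libraries gave Igf2bp1 FPKM values of 17.7, 13.5 and 13.4 at E11.5, 1.53, 1.38 and 1.24 at E15.5 and 0.291, 0.0483 and 0.233 in PN (log2 differences -2.72 and -1.01). For Igf2bp2 the FPKM values were 18.7, 10.4 and 14.1 at E11.5, 3.23, 3.53 and 2.67 at E15.5 and 0.473, 0.192 and 0.5303 in PN, steps of -1.86 and -1.57 on the log2 scale. Igf2bp3 had an FPKM of 13.8, 25.8 and 47.2 at E11.5, 3.49, 2.48 and 5.603 at E15.5 and 0.0632, 0.564 and 1.78 in PN, with log2 differences of -2.51 and -1.49. No library of a later stage reached the level of an earlier one in any of the 3. Ccnd2, the D-type cyclin of neural progenitors, did the same. The libraries gave Ccnd2 FPKM values of 35.2, 20.03 and 13.9 at E11.5, 2.52, 5.03 and 4.21 at E15.5 and 0.431, 0.194 and 1.01 in PN (log2 differences -2.23 and -1.67). Of the 14 others in the list, 6 were lower and 1 higher in the first interval by limma, and 1 was lower and 1 higher in the second. Arid3a and Arid3b are AT-rich DNA-binding factors, and Dis3l2 is an exonuclease that degrades let-7 precursors marked by Lin28. Arid3b had a mean FPKM of 10.6 ± 2.13 at E11.5 and 1.41 ± 0.305 at E15.5 (SD, n = 3 each), a log2 difference of -2.26 ± 0.38 (SE) with an adjusted p of 0.00109. Arid3a had a mean FPKM of 3.64 ± 1.27 at E11.5 and 0.417 ± 0.116 at E15.5 (SD, n = 3 each), a log2 difference of -1.67 ± 0.33 (SE) with an adjusted p of 0.002903. Dis3l2 had a mean FPKM of 6.18 ± 3.07 at E11.5 and 13.3 ± 1.04 at E15.5 (SD, n = 3 each), a log2 difference of 1.09 ± 0.37 (SE) with an adjusted p of 0.0456. After E15.5 the calls were Mycl1, a Myc-family factor, and Hmga2, a chromatin protein and let-7 target. Mycl1 had a mean FPKM of 14.4 ± 3.12 at E15.5 and 3.703 ± 0.896 in PN (SD, n = 3 each), a log2 difference of -1.71 ± 0.34 (SE) with an adjusted p of 0.00489. Hmga2 had a mean FPKM of 0.184 ± 0.147 at E15.5 and 1.75 ± 0.429 in PN (SD, n = 3 each), a log2 difference of 1.21 ± 0.31 (SE) with an adjusted p of 0.0161. With a library left out in turn, the call of Dis3l2 was lost in 8 of 9 cases (adjusted p 0.056 to 0.139) and that of Hmga2 in 3 (0.0506 to 0.0638). Dis3l2 also lost its call with a pseudocount of 0.1, with no filter on low values and in a fit of the stages compared alone (adjusted p 0.0502 to 0.0854).

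Cell cycle and DNA replication genes gave 4 members of 88 tested. For Cdk4 the FPKM values were 1414, 1235 and 1102 at E11.5, 575, 539.6 and 356 at E15.5 and 181, 191 and 138 in PN, steps of -1.37 and -1.51 on the log2 scale. Cdk4, the catalytic partner of the D cyclins, was thus among the most abundant members at every stage. Rfc4 had an FPKM of 117, 58.8 and 121 at E11.5, 38.01, 35.2 and 52.2 at E15.5 and 10.7, 23.04 and 21.5 in PN, with log2 differences of -1.18 and -1.19. Rfc4 belongs to the clamp loader of DNA replication. The libraries gave Cenpa FPKM values of 11.8, 17.5 and 5.63 at E11.5, 6.24, 4.27 and 1.89 at E15.5 and 2.08, 0.239 and 2.55 in PN (log2 differences -1.28 and -1.01). For Cdc25b the FPKM values were 10.5, 6.66 and 8.85 at E11.5, 7.67, 3.87 and 2.79 at E15.5 and 3.56, 1.07 and 2.07 in PN, steps of -0.81 and -0.82 on the log2 scale. Cenpa, the centromeric histone H3, and Cdc25b, a phosphatase that activates cyclin-dependent kinases, were low genes whose libraries overlapped between stages. Of the other 84 genes of the list, limma called 3 lower (3.57%) and 24 higher (28.6%, against 17.4% of genes tested) in the first interval. In the second it called 24 lower (28.6%, against 9.55%) and 0 higher (against 10.6%; 2 at an unadjusted p below 0.05). Rpa1 had a mean FPKM of 3.79 ± 4.44 at E11.5 and 29.2 ± 1.36 at E15.5 (SD, n = 3 each), a log2 difference of 3.19 ± 0.64 (SE) with an adjusted p of 0.00343. Rrm2 had a mean FPKM of 3.49 ± 2.81 at E11.5 and 20.9 ± 3.26 at E15.5 (SD, n = 3 each), a log2 difference of 2.46 ± 0.42 (SE) with an adjusted p of 0.00129. Rpa1 and Rrm2 act in DNA replication and nucleotide supply. Rpa3 had a mean FPKM of 72.6 ± 14.52 at E15.5 and 9.39 ± 1.43 in PN (SD, n = 3 each), a log2 difference of -2.81 ± 0.27 (SE) with an adjusted p of 5.55e-05. Fen1 had a mean FPKM of 17.4 ± 5.05 at E15.5 and 2.61 ± 1.96 in PN (SD, n = 3 each), a log2 difference of -2.48 ± 0.47 (SE) with an adjusted p of 0.00359. The calls in the first interval that went down were few. Mcm2 had a mean FPKM of 20.5 ± 5.06 at E11.5 and 4.03 ± 1.16 at E15.5 (SD, n = 3 each), a log2 difference of -2.09 ± 0.36 (SE) with an adjusted p of 0.00131. Ccnd3 had a mean FPKM of 16.8 ± 7.15 at E11.5 and 3.83 ± 1.37 at E15.5 (SD, n = 3 each), a log2 difference of -1.85 ± 0.48 (SE) with an adjusted p of 0.0129. The call of Ccnd3 was lost without 1 E15.5 library (adjusted p 0.0538). Cdkn1c, an imprinted inhibitor of cyclin-dependent kinases, fell as well and was the only member among 28 tested imprinted and fetal growth genes. Cdkn1c had an FPKM of 286, 252 and 185 at E11.5, 31.6, 23.8 and 20.5 at E15.5 and 9.53, 8.19 and 10.5 in PN, with log2 differences of -3.20 and -1.32.

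Retinoid genes contributed 3 of 16. Crabp2, which carries retinoic acid to its nuclear receptors, had the second largest fall of all members. The libraries gave Crabp2 FPKM values of 222, 134 and 118 at E11.5, 8.305, 2.65 and 3.04 at E15.5 and 1.93, 1.32 and 1.29 in PN (log2 differences -4.89 and -1.05). For Dhrs4 the FPKM values were 24.1, 45.6 and 37.3 at E11.5, 27.7, 16.4 and 14.1 at E15.5 and 7.24, 4.99 and 7.82 in PN, steps of -0.86 and -1.37 on the log2 scale. Rxrg had an FPKM of 10.7, 2.18 and 3.71 at E11.5, 2.58, 1.82 and 0.557 at E15.5 and 0.179, 0.635 and 0.0951 in PN, with log2 differences of -1.16 and -0.97. The retinaldehyde reductase Dhrs4 kept several FPKM in PN, and the receptor gene Rxrg was low throughout, with 1 E11.5 library far above the other two. Among the 13 others, 3 were lower and 3 higher in the first interval, and 0 were lower, also at an unadjusted p below 0.05, and 1 higher in the second (limma). Rara is a nuclear receptor of retinoic acid. Rara had a mean FPKM of 8.95 ± 1.75 at E11.5 and 0.787 ± 0.665 at E15.5 (SD, n = 3 each), a log2 difference of -2.52 ± 0.36 (SE) with an adjusted p of 0.000446. Rai14 had a mean FPKM of 10.5 ± 4.18 at E11.5 and 0.325 ± 0.241 at E15.5 (SD, n = 3 each), a log2 difference of -3.06 ± 0.36 (SE) with an adjusted p of 0.000124. Rai2 had a mean FPKM of 0.0389 ± 0.0339 at E11.5 and 16.2 ± 4.23 at E15.5 (SD, n = 3 each), a log2 difference of 4.02 ± 0.42 (SE) with an adjusted p of 5.52e-05. The second interval had a single call. Rdh14 had a mean FPKM of 13.7 ± 4.096 at E15.5 and 32.9 ± 6.72 in PN (SD, n = 3 each), a log2 difference of 1.23 ± 0.33 (SE) with an adjusted p of 0.0205. That call was lost in 4 of 9 cases with a library left out (adjusted p 0.0596 to 0.0759). Dhrs3 was listed at 0 in the E11.5 libraries and had a mean FPKM of 7.84 ± 2.17 at E15.5 and 5.74 ± 3.66 in PN (SD, n = 3 each).

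The chromatin list gave Ezh2, the methyltransferase of Polycomb repressive complex 2, and Phc2, a subunit of complex 1, as 2 of its 122 tested genes. The libraries gave Ezh2 FPKM values of 16.5, 17.9 and 30.4 at E11.5, 10.7, 6.64 and 12.03 at E15.5 and 0.944, 1.22 and 4.20004 in PN (log2 differences -1.05 and -1.90). For Phc2 the FPKM values were 37.9, 28.4 and 30.7 at E11.5, 16.4, 16.7 and 8.795 at E15.5 and 3.03, 5.47 and 3.47 in PN, steps of -1.20 and -1.57 on the log2 scale. For both, all PN libraries were below all E15.5 libraries. H2afv, a variant of H2A.Z, was the only member in the HMG and histone variant list (32 tested genes) and stayed abundant. The members Suv420h2 and Hist1h1a stood in neither list. H2afv had an FPKM of 219.8, 169 and 175 at E11.5, 105, 68.4 and 85.3 at E15.5 and 22.3, 32.9 and 28.2 in PN, with log2 differences of -1.13 and -1.60. Of the 120 other chromatin genes, limma called 28 lower (23.3%, against 1348 of 11741 genes tested) and 16 higher (13.3%, against 17.4%) in the first interval and 19 lower (15.8%, against 9.55%) and 7 higher (5.83%, against 10.6%) in the second.

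Members in the lists of surface, matrix and guidance molecules were Mdk and Gpc2 (2 of 82 adhesion and matrix genes), Ephb3 and Cxcr4 (2 of 52 axon guidance genes) and Igfbp5 (1 of 62 growth factor genes). The lists are not complete, and the members Jam2, Jam3, Mmp14, Thbs3 and Ddr1 stood in none of them. The libraries gave Mdk FPKM values of 652, 631 and 340.3 at E11.5, 89.5, 144 and 66.4 at E15.5 and 41.1, 41.1 and 21.9 in PN (log2 differences -2.44 and -1.48). For Gpc2 the FPKM values were 22.7, 26.6 and 26.01 at E11.5, 11.2, 9.15 and 8.25 at E15.5 and 2.46, 5.72 and 1.61 in PN, steps of -1.32 and -1.41 on the log2 scale. Midkine, encoded by Mdk, is a heparin-binding growth factor, and glypican 2 is a heparan sulfate proteoglycan of growing axons whose start carries the highest peak score shown above. Igfbp5 had an FPKM of 65.97, 84.5 and 92.2 at E11.5, 25.5, 25.9 and 14.98 at E15.5 and 11.9, 8.503 and 12.7 in PN, with log2 differences of -1.85 and -0.92. The libraries gave Ephb3 FPKM values of 15.1, 2.71 and 4.49 at E11.5, 3.85, 1.17 and 0.868 at E15.5 and 0.05895, 0.0656 and 0.396 in PN (log2 differences -1.35 and -1.21). For Cxcr4 the FPKM values were 10.6, 3.82 and 2.7498 at E11.5, 1.703, 1.36 and 2.59 at E15.5 and 0.333, 0.357 and 0.525 in PN, steps of -1.07 and -1.02 on the log2 scale. Ephb3, an ephrin receptor, and Cxcr4, the Cxcl12 receptor of migrating neurons, were low and had 1 E11.5 library above the others. Of the other 80 genes of the adhesion list, limma called 4 lower (5%) and 39 higher (48.8%, against 17.4% of genes tested) in the first interval and 8 lower (10%, against 9.55%) and 20 higher (25%, against 10.6%) in the second. No member was found among 10 of the lists, which cover Hox genes, Notch, Wnt and Hedgehog signalling, the growth cone, RNA-binding proteins and splicing regulators, ribosome biogenesis, chaperones, one-carbon metabolism, ion channels and synaptic release. These counts describe the lists as drawn up. Each gene was placed in a single list, so the 3 Igf2bp genes counted in the Lin28 and let-7 list and not among RNA-binding proteins. The Wnt and Hedgehog list did not hold the member Bcl9. In all, 26 members stood in a list, or 2.18% of 1190 tested list genes, against 0.894% of all genes tested, and 79 stood in none. Since the lists were chosen with earlier results of these data known, nothing is read from the difference between these shares.

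**Figure D3:**
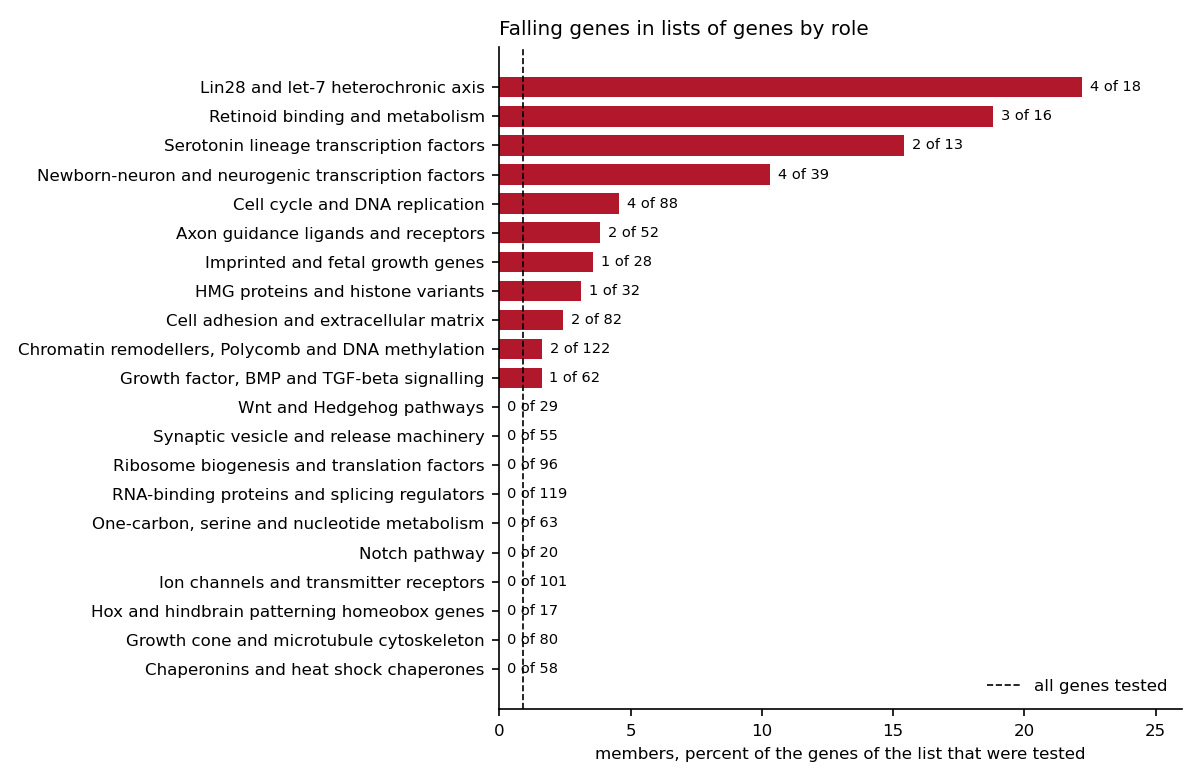
Bars give the members as a percentage of the tested genes of each role list, with the counts beside them, and the dashed line marks the 0.894% of all genes tested. The Lin28 and let-7 list leads with 4 of 18, and 10 lists have no member. The lists were chosen with earlier results of these data known, so the shares are a description.

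Several of the steepest falls came from genes outside every list. C1ql1 had an FPKM of 192, 149 and 124 at E11.5, 1.49, 3.52 and 2.32 at E15.5 and 0.206, 1.39 and 1.08 in PN, with log2 differences of -5.52 and -0.88. C1ql1, a secreted protein of the C1q family that organises synapses in other neurons, therefore made 86.3% of its fall in the first interval, the highest share of any member. The libraries gave Clic1 FPKM values of 147, 61.9 and 153 at E11.5, 19.9, 45.2 and 17.5 at E15.5 and 0.225, 6.502 and 0.889 in PN (log2 differences -2.11 and -3.33). For Phf21b the FPKM values were 42.4, 56.1 and 41.8 at E11.5, 6.43, 3.34 and 2.33 at E15.5 and 2.78, 0.749 and 0.212 in PN, steps of -3.31 and -1.25 on the log2 scale. Tead2 had an FPKM of 23.97, 27.8 and 20.9 at E11.5, 0.117, 2.87 and 0.7701 at E15.5 and 0.0311, 0.0878 and 0.0902 in PN, with log2 differences of -3.67 and -0.88. Clic1, a chloride intracellular channel protein, had the largest fall of any member in the second interval, while Tead2, a DNA-binding partner of Yap, was at most 2.87 FPKM in every E15.5 library. The libraries gave Casp6 FPKM values of 149, 79.3 and 87.7 at E11.5, 33.6, 19.5 and 24.1 at E15.5 and 3.95, 3.47 and 6.03 in PN (log2 differences -1.97 and -2.28). For Mylpf the FPKM values were 49.6, 70.5 and 58.6 at E11.5, 6.16, 7.297 and 5.91 at E15.5 and 1.56, 2.98 and 2.14 in PN, steps of -3.01 and -1.23 on the log2 scale. Casp6, an executioner caspase, and Mylpf, a myosin regulatory light chain best known in fast muscle, had no overlap between stages. The 53 members that the naming rule left out averaged 4.70 to 201 FPKM at E11.5, 1.15 to 112 FPKM at E15.5 and 0 to 42.8 FPKM in PN. In 33 the first step was the larger: Abtb2, Apool, Bcl9, Bin3, Cdca7, Ctnna1, Ddr1, Fam59b, Frmd4b, Gdpd5, Gpr56, Gsbs, Gsdmd, Hipk2, Iah1, Jam3, Kctd10, Llgl1, Mmp14, Msn, Nes, Nr1h4, Nuak2, Plekho1, Pnma1, Ropn1l, Sap30, Spats2, Tcn2, Thbs3, Tpmt, Ubn1 and Uxt. In 20 the second was the larger: Akr1b8, Brms1, Ccdc163, Clic4, Cmtm8, Hist1h1a, Klhdc8b, Lpar6, Mical1, Nhsl1, Patz1, Pdzrn4, Prdx6, Rassf7, Rcc2, Serinc2, Setmar, Shkbp1, Trp53i11 and Txnip. Akr1b8, an aldo-keto reductase, was at 0 FPKM in all 3 PN libraries and was singled out after its values were seen.

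Some further members code for proteins of the cytoskeleton, of cell junctions or of polarity. They are set side by side here after their values were seen, with no count or test of such a group. Vim had an FPKM of 158, 301 and 246 at E11.5, 50.5, 109.9 and 76.5 at E15.5 and 18.7, 23.5 and 24.7 in PN, with log2 differences of -1.58 and -1.72. The libraries gave Nes FPKM values of 2.95, 5.498 and 7.08 at E11.5, 0.237, 3.16 and 1.65 at E15.5 and 0.108, 0.146 and 0.877 in PN (log2 differences -1.31 and -0.84). Vimentin and nestin are intermediate filaments of neural progenitors. For Cnn3 the FPKM values were 196, 262 and 322 at E11.5, 101, 107 and 134 at E15.5 and 21.9, 34.01 and 23.8 in PN, steps of -1.16 and -2.08 on the log2 scale. Jam2 had an FPKM of 17.04, 11.004 and 14.04 at E11.5, 3.63, 6.12 and 4.15 at E15.5 and 1.01, 3.17 and 1.83 in PN, with log2 differences of -1.42 and -0.95. The libraries gave Crb1 FPKM values of 9.73, 6.24 and 6.59 at E11.5, 3.12, 4.02 and 3.39 at E15.5 and 1.29, 0.377 and 0.975 in PN (log2 differences -0.90 and -1.29). The actin-binding calponin Cnn3 was abundant, the junctional adhesion molecule Jam2 and the polarity protein Crb1 were not. Of the progenitor markers apart from Vim and Nes, the other 9 summed to 98.4 to 254 FPKM at E11.5, 127 to 239 FPKM at E15.5 and 46.5 to 85.4 FPKM in PN. Of their 7 tested genes, limma called 1 lower in the first interval and 3 lower in the second. None of the 9 was at 0 in all libraries of a stage, and the part of progenitors in these falls was not tested.

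The highest members at E11.5 were 4 ribosomal protein genes, which code for both subunits, together with Cryba2, Cdk4, Chgb, Gng5, Mdk and Tax1bp3. For Rpl32 the FPKM values were 7272, 5807 and 6693 at E11.5, 4310.02, 3606 and 2611 at E15.5 and 1754, 1929 and 1635 in PN, steps of -0.93 and -0.96 on the log2 scale. Rps14 had an FPKM of 9582, 5848 and 5565 at E11.5, 4496, 3545 and 2264 at E15.5 and 1809.7, 2071 and 1674 in PN, with log2 differences of -1.04 and -0.84. The libraries gave Rps9 FPKM values of 5926, 4077 and 3809 at E11.5, 3291, 2712 and 1658 at E15.5 and 1326, 1576 and 1084 in PN (log2 differences -0.88 and -0.90). Libraries of different stages did not overlap in any of these 3. For Rps28 the FPKM values were 2343, 1229 and 1363 at E11.5, 1029, 761 and 501 at E15.5 and 291, 353 and 258 in PN, steps of -1.11 and -1.29 on the log2 scale. Ribosomal protein genes have many near-identical copies in the genome, so how reads were assigned among them is uncertain. Taken as a family after these values were seen, 81 were tested, 58 had both differences below 0, and the medians were -0.96 in the first and -0.38 in the second interval. Of the 77 that are not members, 50 were lower (64.9%, against 1348 of 11741 genes tested) and 1 higher (1.3%, against 17.4%) in the first interval and 15 lower (19.5%, against 9.55%) and 1 higher (1.3%, against 10.6%) in the second, by limma. Cryba2 had an FPKM of 2954, 2786 and 2315 at E11.5, 1605, 1504 and 944 at E15.5 and 399, 775 and 293 in PN, with log2 differences of -1.02 and -1.55. The libraries gave Chgb FPKM values of 1107, 1209 and 1426 at E11.5, 368, 553 and 493 at E15.5 and 189, 243 and 199 in PN (log2 differences -1.41 and -1.15). Cryba2 is a crystallin otherwise known for the lens, and chromogranin B (Chgb) a protein of dense-core granules. For Gng5 the FPKM values were 1361, 739 and 989 at E11.5, 257, 249.95 and 167 at E15.5 and 98.3, 158 and 91.9 in PN, steps of -2.17 and -0.96 on the log2 scale. Tax1bp3 had an FPKM of 601, 436 and 337 at E11.5, 337, 236 and 161 at E15.5 and 65.4, 126 and 71.4 in PN, with log2 differences of -0.93 and -1.47. The G protein subunit Gng5 lost most before E15.5, the PDZ protein Tax1bp3 after it.

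A second measurement of wild-type E15.5 neurons, with the NuGEN kit, did not enter the rule. Its level lay below the E11.5 mean for 103 of 105 members, above the PN mean for 91 and between both for 89 (84.8%, against 14.1% of genes tested). The E11.5 and PN values that frame it were those the rule used, which sets members far apart at both ends, and NuGEN values were normalised separately, so the share is a description. Cxcr4, at 6.35 FPKM, and Nhsl1, at 6.22 FPKM, exceeded their E11.5 means of 5.72 and 5.93 FPKM. Another 14 members were at or below their PN mean, among them Mdk with 23.3 FPKM by NuGEN against 34.7 FPKM in PN and Lmx1b with 2.54 FPKM against 3.45 FPKM. The median log2 ratio of NuGEN to Clontech wild-type levels was -0.44 for members and 0.02 over genes tested.

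In Pet-1 knockout neurons more of the falling genes were called lower than higher, with either kit, and 77 of the 105 were called with neither. The values are the authors' deposited group FPKM, with no replicate values or errors, and a gene was called where their q-value was under 0.05, the change 1.5-fold or more and one group at 1 FPKM or above. With NuGEN 13 of 101 tested members were lower (12.9%, background 4.56%) and 7 higher (6.93%, background 8.19%). With Clontech 13 of 105 were lower (12.4%, background 1.85%) and 1 higher (0.952%, background 0.969%). The wild-type libraries of the Clontech table are also those of the E15.5 stage, which the rule used, while those of the NuGEN table are not. The Clontech shares of members are therefore a description. The median log2 fold change of members, knockout over wild type, was -0.04 with NuGEN, against 0.09 over all genes, and -0.27 with Clontech, against -0.02. The direction with NuGEN therefore rests on the called genes, since 53 members were below 0 and 48 above. Tead2, Msn, Cdca7 and Nes were under 1 FPKM in both NuGEN groups and had no call.

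Knockout calls were also counted for genes past only 1 of the thresholds. Of genes past the threshold in the second interval only, 143 of 1684 were lower with NuGEN (8.49%) and 96 higher (5.7%), and with Clontech 78 of 1734 were lower (4.5%) and 8 higher. Of genes past it in the first interval only, 48 of 1491 were lower with NuGEN (3.22%) and 121 higher (8.12%), and with Clontech 18 of 1450 were lower (1.24%) and 20 higher. Genes that climbed in both intervals had 10 lower (3.27%) and 53 higher (17.3%) of 306 with NuGEN, and 11 lower (3.42%) and 15 higher (4.66%) of 322 with Clontech. These differences between sets were not tested, and the sets differ in level, with a median wild-type NuGEN level of 6.85 FPKM in members, 18.1 FPKM in the second-interval genes, 5.85 FPKM in the first-interval genes and 8.24 FPKM over all genes.

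In both kits 6 members were lower, of 101 tested in both (5.94%), among 60 genes of 10501 in all (0.571%). By the authors' q, 0 members were higher in both, beside 38 of 10501 genes in all (0.362%), and 0 were called in opposite directions. With so low a share over all genes, nothing is read from the 0 higher in both. At the authors' unadjusted p below 0.05, 1 member was higher in both and 1 went in opposite directions. The Clontech wild-type libraries also served the rule, which asks for a PN level well below E15.5. The joint share is therefore a description. By the authors' deposited tables, Chgb stood at 216 FPKM in knockout and 638 FPKM in wild-type neurons with NuGEN (log2 fold change -1.56, q = 0.00206), and 186 FPKM in knockout and 383 FPKM in wild-type neurons with Clontech (log2 fold change -1.04, q = 0.00391). Vim had, in the authors' deposited tables, 18.8 FPKM in knockout and 38.7 FPKM in wild-type neurons with NuGEN (log2 fold change -1.04, q = 0.00206), and 18.9 FPKM in knockout and 64.2 FPKM in wild-type neurons with Clontech (log2 fold change -1.76, q = 0.00391). The authors' deposited tables give Tmem98 16.96 FPKM in knockout and 36.4 FPKM in wild-type neurons with NuGEN (log2 fold change -1.10, q = 0.00206), and 28.1 FPKM in knockout and 68.99 FPKM in wild-type neurons with Clontech (log2 fold change -1.29, q = 0.00391). All 3 were more than 2-fold lower with either kit. Tmem98, a transmembrane protein, had the second largest fall of any member between E15.5 and PN. The libraries gave Tmem98 FPKM values of 174, 162 and 142 at E11.5, 103, 56.2 and 53.5 at E15.5 and 13.2, 21.2 and 3.29 in PN (log2 differences -1.22 and -2.64). In the authors' deposited tables Cryba2 had 419.9 FPKM in knockout and 795 FPKM in wild-type neurons with NuGEN (log2 fold change -0.92, q = 0.00206), and 383 FPKM in knockout and 1144 FPKM in wild-type neurons with Clontech (log2 fold change -1.58, q = 0.00391). By the authors' deposited tables, Jam2 stood at 1.396 FPKM in knockout and 2.47 FPKM in wild-type neurons with NuGEN (log2 fold change -0.83, q = 0.0436), and 1.67 FPKM in knockout and 5.398 FPKM in wild-type neurons with Clontech (log2 fold change -1.69, q = 0.00391). Cnn3 had, in the authors' deposited tables, 73.3 FPKM in knockout and 116 FPKM in wild-type neurons with NuGEN (log2 fold change -0.66, q = 0.0484), and 74.8 FPKM in knockout and 114 FPKM in wild-type neurons with Clontech (log2 fold change -0.61, q = 0.0256). Cnn3 had the smallest change of the 6 and a NuGEN q of 0.0484, close to the threshold. The knockout tables give group values alone, so no library could be left out of these counts.

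**Figure D4:**
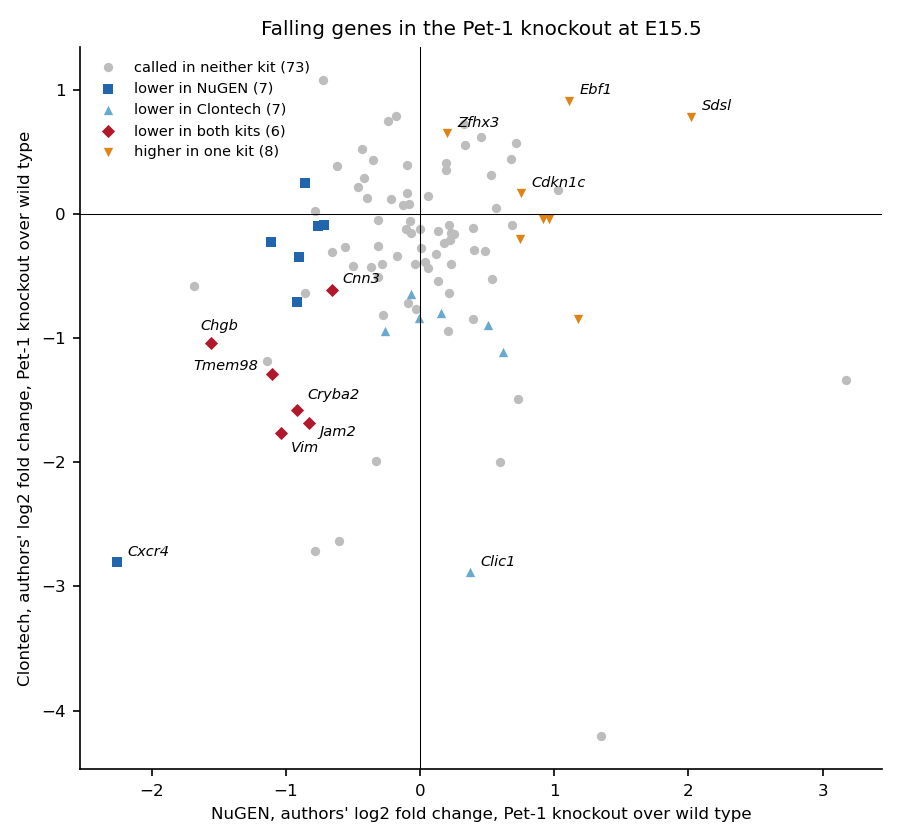
The authors' log2 fold change, knockout over wild type, with NuGEN (x axis) and Clontech (y axis) for the 101 members tested in both; symbols give the calls. The 6 members lower in both kits sit at the lower left, while Ebf1, Cdkn1c and Sdsl, called higher with NuGEN, lie to the right.

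Other members were called in 1 kit. The authors' deposited tables give Cxcr4 1.32 FPKM in knockout and 6.35 FPKM in wild-type neurons with NuGEN (log2 fold change -2.26, q = 0.00206), and 0.315 FPKM in knockout and 2.203 FPKM in wild-type neurons with Clontech (log2 fold change -2.81, q = 0.106). In the authors' deposited tables Crb1 had 2.64 FPKM in knockout and 5.703 FPKM in wild-type neurons with NuGEN (log2 fold change -1.11, q = 0.00352), and 3.18 FPKM in knockout and 3.72 FPKM in wild-type neurons with Clontech (log2 fold change -0.23, q = 0.767). By the authors' deposited tables, Prrg2 stood at 8.07 FPKM in knockout and 15.3 FPKM in wild-type neurons with NuGEN (log2 fold change -0.92, q = 0.0243), and 8.78 FPKM in knockout and 14.4 FPKM in wild-type neurons with Clontech (log2 fold change -0.71, q = 0.241). Cxcr4 did not reach the threshold with Clontech, and Prrg2 is a transmembrane protein with a Gla domain. Igf2bp1, Frmd4b, Trp53i11 and Kctd10 were the remaining genes lower with NuGEN only. Clic1, Mdk, Ccnd2, Gng5, Igfbp5, H2afv and Tcn2 were lower with Clontech only. Clic1 had, in the authors' deposited tables, 8.84 FPKM in knockout and 6.85 FPKM in wild-type neurons with NuGEN (log2 fold change 0.37, q = 0.484), and 3.396 FPKM in knockout and 25.1 FPKM in wild-type neurons with Clontech (log2 fold change -2.89, q = 0.00391). The authors' deposited tables give Mdk 33.05 FPKM in knockout and 23.3 FPKM in wild-type neurons with NuGEN (log2 fold change 0.50, q = 0.212), and 44.04 FPKM in knockout and 81.8 FPKM in wild-type neurons with Clontech (log2 fold change -0.89, q = 0.0124). Their NuGEN values were not below wild type, so the kits differ in sign here.

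Members higher in the knockout with NuGEN were Ebf1, Cdkn1c, Sdsl, Dera and the ribosomal genes Rps28, Rpl32 and Rps14. In the authors' deposited tables Ebf1 had 9.002 FPKM in knockout and 4.17 FPKM in wild-type neurons with NuGEN (log2 fold change 1.11, q = 0.005801), and 6.44 FPKM in knockout and 3.42 FPKM in wild-type neurons with Clontech (log2 fold change 0.91, q = 0.159). By the authors' deposited tables, Cdkn1c stood at 50.95 FPKM in knockout and 30.2 FPKM in wild-type neurons with NuGEN (log2 fold change 0.75, q = 0.0222), and 23.9 FPKM in knockout and 21.3 FPKM in wild-type neurons with Clontech (log2 fold change 0.17, q = 0.801). Sdsl had, in the authors' deposited tables, 4.59 FPKM in knockout and 1.13 FPKM in wild-type neurons with NuGEN (log2 fold change 2.02, q = 0.0127), and 4.17 FPKM in knockout and 2.42 FPKM in wild-type neurons with Clontech (log2 fold change 0.78, q = 0.513). Ebf1 and Cdkn1c are both among the 10 steepest falls. The authors' deposited tables give Dera 4.23 FPKM in knockout and 1.87 FPKM in wild-type neurons with NuGEN (log2 fold change 1.18, q = 0.0297), and 4.25 FPKM in knockout and 7.64 FPKM in wild-type neurons with Clontech (log2 fold change -0.84, q = 0.212). In the authors' deposited tables Rps28 had 1736 FPKM in knockout and 894 FPKM in wild-type neurons with NuGEN (log2 fold change 0.96, q = 0.00206), and 646 FPKM in knockout and 663 FPKM in wild-type neurons with Clontech (log2 fold change -0.04, q = 0.96001). By the authors' deposited tables, Rpl32 stood at 3626 FPKM in knockout and 1924 FPKM in wild-type neurons with NuGEN (log2 fold change 0.91, q = 0.00352), and 3019 FPKM in knockout and 3105 FPKM in wild-type neurons with Clontech (log2 fold change -0.04, q = 0.947). Over the ribosomal protein genes as a family, 55 of 80 were higher and 0 lower with NuGEN (median log2 fold change 0.79) and 0 called either way with Clontech (median -0.05, by the authors' q; also 0 either way at their unadjusted p below 0.05, and with NuGEN 67 higher and 0 lower). Sdsl is a serine dehydratase-like enzyme and Dera a deoxyribose-phosphate aldolase. Zfhx3 was the only member higher with Clontech. Zfhx3 had, in the authors' deposited tables, 21.2 FPKM in knockout and 18.4 FPKM in wild-type neurons with NuGEN (log2 fold change 0.20, q = 0.644), and 8.81 FPKM in knockout and 5.63 FPKM in wild-type neurons with Clontech (log2 fold change 0.65, q = 0.0293).

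**Figure D5:**
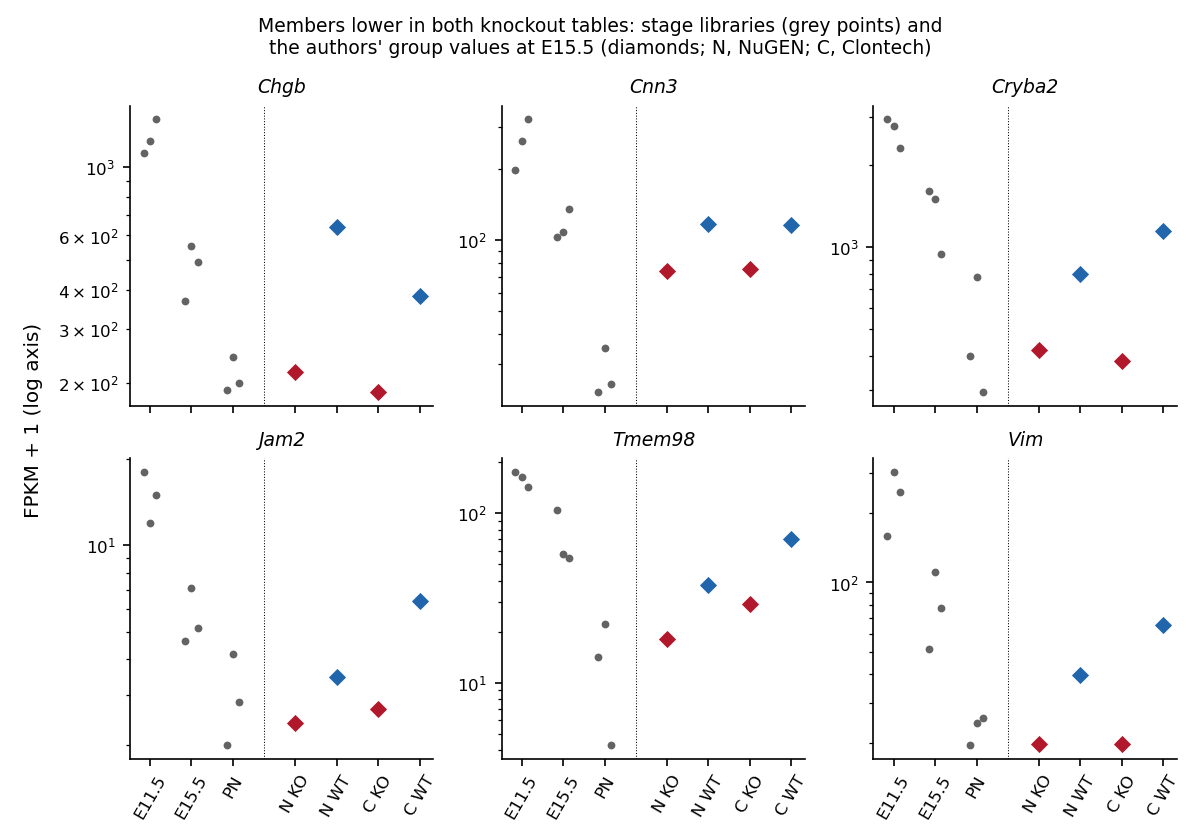
For the 6 members lower in both knockout tables, grey points are the 9 wild-type stage libraries and diamonds the authors' group values at E15.5 (red, knockout; blue, wild type; N, NuGEN; C, Clontech), on a log axis of FPKM + 1. In every panel the red diamond is below the blue diamond of its kit.

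Pet-1 peaks and knockout calls met in few members. A peak lay in the span or within 1 kb of it for 5 of the 20 members lower in at least 1 kit, for 5 of the 8 that were higher and for 21 of the 77 called in neither, beside 35.8% of genes tested. With so few members per class these counts are a description, and no difference between them was tested. The 5 higher members with a peak include Rps28, Rpl32 and Rps14. Their family had 55 of 80 genes higher with NuGEN and 0 with Clontech. Among the 6 lower in both kits, Vim and Cnn3 had a peak, with scores of 57.4 and 96.4, and Chgb, Cryba2, Jam2 and Tmem98 had none. Of the 4 members with the highest scores near a start, Rps28 was higher with NuGEN, and Gpc2, Gata2 and Cited2 were not called in either kit. The authors' deposited tables give Gpc2 33.5 FPKM in knockout and 24.5 FPKM in wild-type neurons with NuGEN (log2 fold change 0.45, q = 0.197), and 14.7 FPKM in knockout and 9.58 FPKM in wild-type neurons with Clontech (log2 fold change 0.62, q = 0.177). In the authors' deposited tables Gata2 had 32.6 FPKM in knockout and 32.6 FPKM in wild-type neurons with NuGEN (log2 fold change 0.00, q = 0.998), and 30.6 FPKM in knockout and 33.5 FPKM in wild-type neurons with Clontech (log2 fold change -0.13, q = 0.825). By the authors' deposited tables, Cited2 stood at 8.15 FPKM in knockout and 7.13 FPKM in wild-type neurons with NuGEN (log2 fold change 0.19, q = 0.699), and 10.05 FPKM in knockout and 7.57 FPKM in wild-type neurons with Clontech (log2 fold change 0.41, q = 0.523). Lmx1b had 4 peaks over its span, the highest scoring 299, and was not called either.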

How the data were processed

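RNA was measured in sorted 5-HT neurons (18 libraries in 6 groups of 3) and mycPet-1 occupancy in hindbrain (1 ChIP sample and 1 input). FPKM per library (stages) or per group (knockout) were deposited by the authors. The knockout tables, in the Cuffdiff layout per the file headers, also hold the authors' log2 fold changes, p-values and q-values. Tools in the submitters' processing notes are TopHat2, Cufflinks, BWA (no versions given) and MACS 1.4.2, with the builds mm9 and mm10. Peaks carry the authors' deposited score, and the track line names MACS. Expression coordinates were not used.

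Matrix columns name a stage without a replicate number, so libraries carry letters. For 3 further columns no sample could be found, and they stayed out. No kit is named for E15.5, but means there were close to the Clontech wild-type group (median ratio 0.987) and the protocol gives that kit. Correlations of log2 values were 0.903 to 0.966 within stages and 0.794 to 0.888 between them.

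Stages were fitted with limma 3.58.1 (R 4.3.3) on log2(FPKM + 1) with a mean-variance trend, 1 fit over 9 libraries and 6 residual degrees of freedom, after a check on simulated data; p-values were adjusted over 11741 genes (Benjamini-Hochberg). This scale understates the change of low genes. Genes were called at an adjusted p below 0.05 and 1.5-fold. Promoter windows and gene spans came from RefSeq (GRCm38.p6), with all 105 members matched, 6 of them through a current symbol. The members, the 21 role lists and the tests were chosen with earlier results of these data known. Values are given for the 10 largest falls, the 10 highest E11.5 means, list members, the 3 genes on each side of the threshold, the leading knockout calls and peak scores, and up to 2 other genes of a list per interval and direction.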

Additional observations from a re-analysis of the deposited data

How the results depend on the processing

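No paired analysis was possible because the stage columns carry no replicate number and the knockout tables hold group values only. The set of 105 members became 250 with a pseudocount of 0.1, 48 with a threshold of -1 and 209 with -0.6, and 95 to 123 with a library left out. Upper quartile scaling gave 74, all of them among the 105, and moved the median log2 difference of all genes in the first interval to 0.22. The ribosomal protein medians stayed below 0, at -0.82 and -0.27 under that scaling and -0.96 and -0.46 with libraries centred on their medians. With a library left out, genes lower in the first interval numbered 876 to 1245 (1348 with all), and in the second 527 to 1429 (1121 with all; 527 without PN library a, 595, 697 and 738 without E15.5 library a, b or c, 674 without PN library b). Members lower in the knockout fell to 8 and 8 (NuGEN and Clontech) at q below 0.01 and to 5 and 7 at 2-fold, and members higher to 3 and 0 under either. Shares over all genes were not counted at these stricter cut-offs, so nothing is read from these numbers. Among the 48 members past -1, 8 were lower and 3 higher with NuGEN at the main cut-offs, beside 4.56% and 8.19% of all genes tested. Peaks near the start remained for 11 members at a score of 100 or more and for 12 past -1 only. Of 104 differences of 52 named members none reversed in the settings tried (pseudocount, upper quartile scaling, a library left out). With the pseudocount of 0.1, 15 moved beyond the spread between libraries, and with upper quartile scaling all 104 stayed within it. Leaving out 1 of 3 libraries cannot shift a mean by more than that spread, so this measure says nothing about single libraries. Without PN library a, for example, the second difference of Lmx1b went from -0.95 to -0.39. The depth is unknown, which leaves counting error unstated, and values below 1 FPKM are the least certain.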
